A study of Mus musculus with 26 samples.

Results

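The early B-cell factor genes Ebf1, Ebf2, Ebf3 and Ebf4 were followed across 13 neuron subtypes that had been sorted from retinas of mice at postnatal day 6. They are 4 of 18193 genes named on the array, and were chosen as the members of this family whose symbols the array's probe table holds. The family has 12 probe sets, 5 for Ebf1, 3 for Ebf2, 3 for Ebf3 and 1 for Ebf4, and the brightest over all arrays stood for its gene. Each subtype was measured on 2 single-colour Affymetrix arrays from different litters, which gives 26 arrays. Levels are given as log2(intensity + 16) after quantile normalization, so that a deposited intensity of 1 lies at 4.09 and a difference of 1 is a doubling on that scale.

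The 2 bipolar subtypes were ON bipolar cells, sorted as GFP+ cells from C57BL/6 mice, and MP-positive bipolar cells, sorted as CFP+VC1.1- cells from mixed C57BL/6 x CD1 mice. The 6 ganglion cell subtypes were all sorted with Thy1. BD, J, W3 and W7 ganglion cells were YFP+ Thy1+ cells and Isl2 ganglion cells were bgal+ Thy1+ cells, all from C57BL/6 mice. Cdh3 ganglion cells were GFP+ Thy1+ cells, with the strain given as Swiss Webster x C57BL/7 for replicate 1 and Swiss Webster x C57BL/8 for replicate 2. Of the 5 amacrine subtypes, J amacrine cells (YFP+, labelled glycinergic), PaxCre amacrine cells (GFP+, labelled GABAergic) and starburst amacrine cells (Kusabira Orange+Thy1-) came from C57BL/6 mice. AII amacrine cells (GFP+) came from Swiss Webster x C57BL/6 mice and MP-positive amacrine cells (CFP+VC1.1+) from mixed C57BL/6 x CD1 mice. The J line and the MP line each gave a pair of subtypes. The MP pair was separated by VC1.1, and in the J pair an antibody gate (Thy1+) is given for the ganglion cells only. The element that drives each reporter was not given in the sources used here. AII and J cells were taken as glycinergic and starburst and PaxCre cells as GABAergic, for starburst and AII from general knowledge. MP amacrine cells were put on neither side.

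Early B-cell factors bind DNA as dimers through a zinc-containing domain, followed by an IPT domain and a helix-loop-helix dimerization domain. Ebf1 is known for committing lymphoid precursors to the B lineage, and family members also act in olfactory neurons, brown fat and several parts of the developing nervous system. In mouse retina the family is known from earlier work to be expressed in postmitotic precursors and in subsets of ganglion, amacrine, bipolar and horizontal cells, and to favour glycinergic amacrine fates other than AII.

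In the GRCm38.p6 assembly Ebf1 lies at chr11:44618100-45008096, Ebf2 at chr14:67233292-67430952, Ebf3 at chr7:137193671-137322805 and Ebf4 at chr2:130295126-130370482, all protein-coding. Since Ebf1 and Ebf3 moved together over the subtypes, as described below, the 250 bases before a RefSeq start of each are shown, on the plus strand for Ebf1 (chr11:44617850-44618099) and the minus strand for Ebf3 (chr7:137314446-137314695). Lower case is used throughout, with capitals for a match to CCCNNGGG, the core of the palindromic motif TCCCNNGGGA of the family, on either strand.
Ebf1: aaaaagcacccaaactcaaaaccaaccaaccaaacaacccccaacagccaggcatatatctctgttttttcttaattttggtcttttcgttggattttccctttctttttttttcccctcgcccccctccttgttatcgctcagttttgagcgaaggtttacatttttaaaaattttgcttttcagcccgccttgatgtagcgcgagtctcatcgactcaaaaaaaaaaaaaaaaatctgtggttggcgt
Ebf3: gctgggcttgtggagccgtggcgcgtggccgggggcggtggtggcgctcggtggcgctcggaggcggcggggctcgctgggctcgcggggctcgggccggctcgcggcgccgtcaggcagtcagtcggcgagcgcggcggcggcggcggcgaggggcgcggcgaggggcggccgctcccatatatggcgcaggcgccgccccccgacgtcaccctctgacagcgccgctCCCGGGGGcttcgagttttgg
The Ebf1 window ends at the base before the gene's span, whereas the Ebf3 window lies inside that gene's span, before an internal start. The windows differed in composition. The Ebf1 window had 40.0% G and C with 9 CpG, and the Ebf3 window 80.0% with 43 CpG, against a median of 52.4% over all 32851 promoters in the RefSeq table. The Ebf3 window holds 1 match of the core, CCCGGGGG, from 21 to 14 bases before the start, and the Ebf1 window holds none. The core occurred in 11.8% and the full palindrome in 0.779% of all windows of that length, and the palindrome was in neither. The Ebf3 window also held 3 GC boxes (GGGCGG), a motif found in 32.7% of windows. Neither held an E-box (CANNTG), found in 66.2%. A second Ebf1 start in the table, whose window lies at chr11:44619978-44620227 (52.0% G and C), held no core match either, nor did the Ebf4 window at chr2:130295689-130295938 (75.2% G and C).

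Some arrays differed in ways that touch the values below. The deposited intensities of the 12 ganglion cell arrays had medians of 61.5 to 74.8, against 37.4 to 47.1 on the 14 other arrays. Without normalization, the median of all tested genes lay 0.51 log2 units higher in ganglion than in amacrine cells, against 0.00 after quantile normalization. Marker genes followed the labels. The mean of 9 ganglion cell markers was 11.31 to 11.64 in the ganglion subtypes and at most 7.26 in any other, that of 7 bipolar markers 10.02 to 10.51 in both bipolar subtypes, and that of 8 amacrine markers 8.94 to 11.08 in the amacrine subtypes. Outside their own class, bipolar markers reached 7.99 in MP amacrine cells and amacrine markers 8.03 in J ganglion cells (7.43 and 8.64 on its arrays). Some levels stood against a label or gate. J amacrine cells, labelled glycinergic, had Slc6a9 (the glycine transporter of glycinergic amacrine cells) at 11.69 but also Gad1 (a GABA-synthesizing enzyme) at 10.82, whereas AII cells had Gad1 at 5.75. Thy1, used to exclude cells from the starburst sort, stood at 9.98 there.

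Ebf1 was either high or low in a subtype, with nothing between. In bipolar cells it was low, at 4.76 and 5.46 on the ON bipolar arrays and 5.97 and 5.81 on the MP bipolar arrays. All 12 ganglion cell arrays lay far above, between 9.92 and 11.10 (median 10.59). Amacrine subtypes fell on both sides: Ebf1 was 11.77 and 12.14 in J cells and 11.62 and 12.13 in MP cells, but 5.51 and 5.25 in AII cells, 6.67 and 5.22 in PaxCre cells and 5.29 and 5.21 in starburst cells. As deposited intensities, J amacrine arrays read 2976 and 3753, AII arrays 25.0 and 18.6. On this probe set, the order of the subtype means put J amacrine cells (11.96 ± 0.26) and MP amacrine cells (11.87 ± 0.36) on top, and their arrays overlapped. A step of 1.03 separated them from the ganglion subtypes, which ran from Isl2 (10.85 ± 0.36) through Cdh3, W7, W3 and BD to J (10.31 ± 0.55), each overlapping its neighbour in that order. Below J ganglion cells the means dropped by 4.36 with no overlap. PaxCre amacrine cells (5.94 ± 1.03) overlapped MP bipolar cells (5.89 ± 0.11), MP bipolar cells did not overlap AII cells (5.38 ± 0.18), and AII, starburst (5.25 ± 0.06) and ON bipolar cells (5.11 ± 0.50) overlapped in turn. Every ± here is the SD of 2 arrays. The order among the 8 high subtypes differed between Ebf1 probe sets, as described below.

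Ebf3, a paralog also known from neuronal differentiation, drew the same line between the subtypes. In bipolar cells it was 4.48 and 4.77 (ON) and 5.21 and 5.11 (MP). On the ganglion cell arrays it lay between 9.59 and 11.06 (median 10.54). In amacrine cells it was 12.10 and 12.13 in MP cells and 10.89 and 11.27 in J cells, but 5.93 and 5.12 in AII cells, 7.06 and 5.14 in PaxCre cells and 5.08 and 5.12 in starburst cells. The same 8 subtypes as for Ebf1 were therefore high and the same 5 low. MP amacrine cells stood alone on top (12.12 ± 0.02), 1.04 above J amacrine cells (11.08 ± 0.27), which overlapped Isl2 ganglion cells (10.95 ± 0.16). BD, W7 and J ganglion cells followed without overlap with Isl2, and W3 and Cdh3 cells (both 9.82) lay 0.61 below J ganglion cells. The step from Cdh3 ganglion to PaxCre amacrine cells was 3.72. Among the low subtypes PaxCre (6.10 ± 1.35), AII, MP bipolar and starburst cells each overlapped the next, and ON bipolar cells (4.62 ± 0.21) lay below all of them. The 2 PaxCre arrays differed for both genes, replicate 1 being the higher one each time. The arrays carry no detection calls, so a low level is not shown to be absence, and in sorted pools fewer expressing cells and less RNA per cell cannot be told apart.

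**Figure D1:**
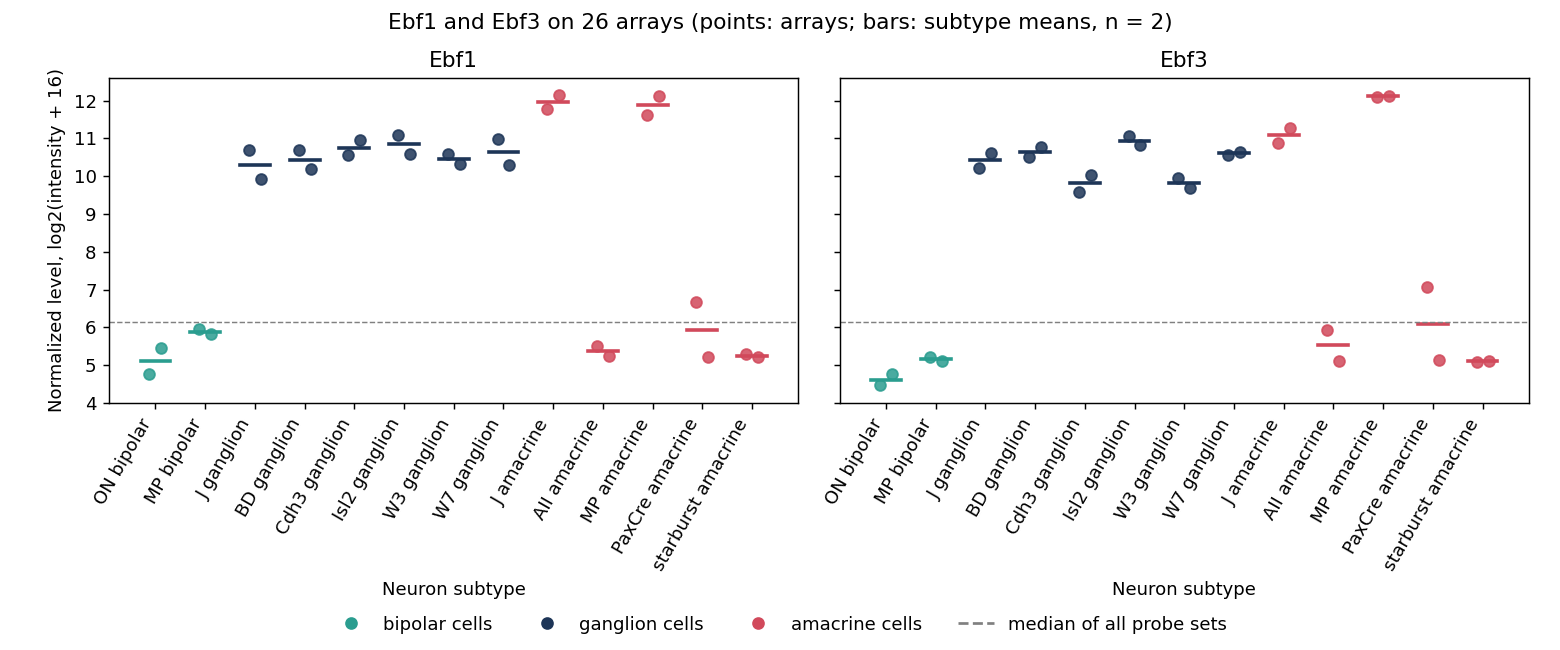
Levels of Ebf1 and Ebf3, log2(intensity + 16) after quantile normalization, on each of 26 arrays (points) with subtype means (bars), and the overall median used in the filter on dim genes as a dashed line at 6.14. All arrays of the 6 ganglion subtypes and of the J and MP amacrine subtypes lie at or above 9.59 for both genes, and those of the other 5 subtypes at or below 7.06.

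The other probe sets of both genes were compared in their shape over the 13 subtype means. For Ebf1, 3 of them followed the brightest with Pearson r of 0.967 to 0.99, and the dimmest (1457441_at) with r of 0.889. For Ebf3 one followed it with r of 0.992 and the dimmest (1460666_a_at) with r of 0.871. Because the subtypes form 2 separate clusters, these r mostly state that each probe set splits them alike. Within the high subtypes the order was not shared. On the next brightest Ebf1 probe set (1448293_at) MP (11.42) and J amacrine cells (11.28) came first without overlap with ganglion cells. On 1439789_at BD ganglion cells (10.97) lay between MP (11.54) and J amacrine cells (10.86). On 1416302_at the order was reversed, with W7 ganglion cells on top (9.57) and MP (8.86) and J amacrine cells (8.52) in places 6 and 7 of 13. The lowest ganglion subtype was J on the brightest and the dimmest probe set, Isl2 on 1448293_at, W7 on 1439789_at and W3 on 1416302_at. On the dimmest Ebf1 probe set ganglion cells lay at 6.05 to 6.46 and J amacrine cells at 6.06, against 7.58 in MP amacrine cells. The Ebf2 probe sets did not follow each other (r of 0.406, -0.424 and 0.305), and 1449102_at differed between the BD ganglion arrays, at 5.14 and 6.70.

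**Figure D2:**
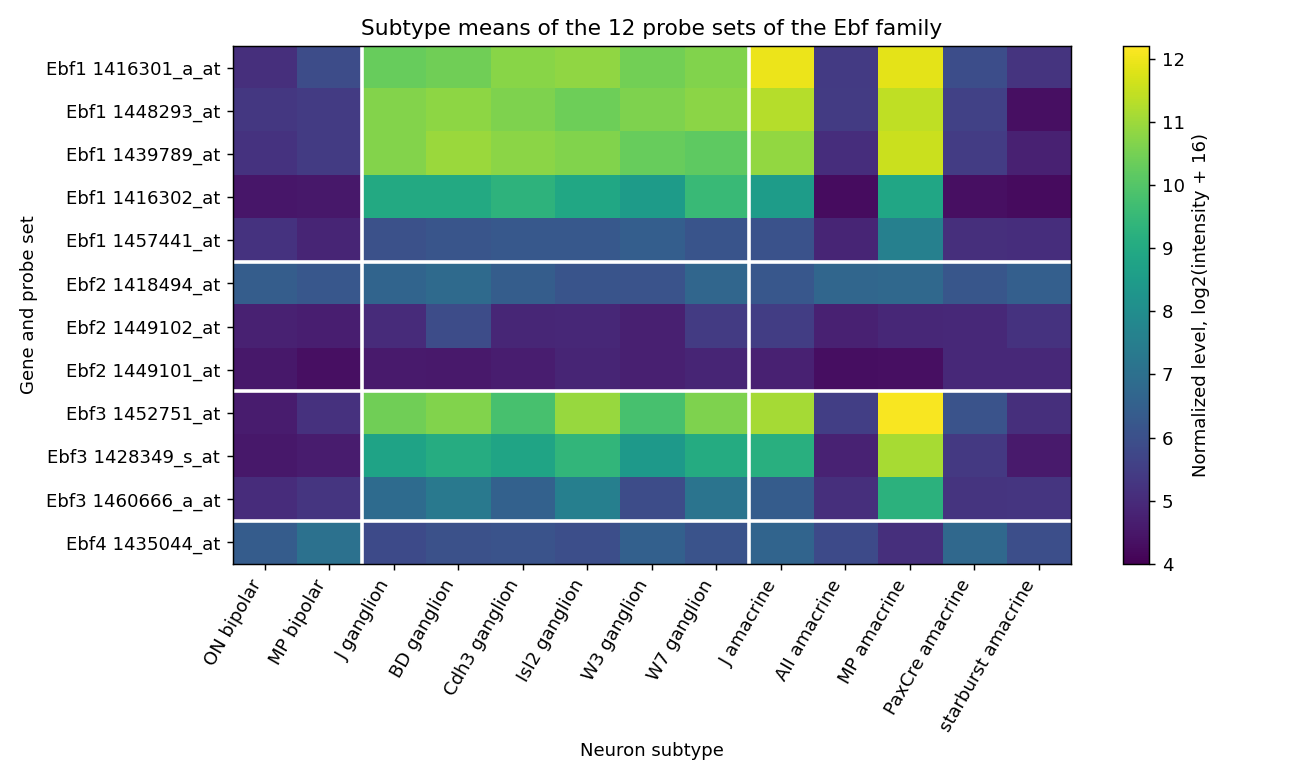
Subtype means (colour, log2(intensity + 16), 2 arrays each) of the 12 probe sets of the family, in rows from brightest to dimmest within each gene. White lines separate genes and cell classes. The 5 Ebf1 and 3 Ebf3 probe sets show the same bright columns, dimmest for Ebf1 1457441_at and Ebf3 1460666_a_at, and the Ebf2 and Ebf4 probe sets show no such columns.

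Ebf2, which acts in brown fat and in cerebellar and other neurons, varied little. Its brightest probe set spanned 0.73 between subtype means, from 6.10 in W3 ganglion cells to 6.83 in BD ganglion cells, and each of the 13 subtypes overlapped the next in the order. Single arrays lay between 5.95 and 7.07. Subtype means of its other probe sets were 4.31 to 4.95 (1449101_at) and 4.68 to 5.92 (1449102_at), toward the floor of 4.09. An even level of Ebf2 and probe sets that hardly measure it cannot be told apart. Ebf4, the member least studied, spanned 1.97. It was highest in MP bipolar cells, at 6.88 and 7.27, and lowest in MP amacrine cells, at 5.42 and 4.78. MP amacrine cells (5.10 ± 0.46) lay 0.74 below the next subtype, AII cells, without overlap. PaxCre (6.44 and 7.12) and J amacrine cells (6.93 and 6.33) were near the upper end, and the 12 ganglion cell arrays lay between 5.79 and 6.69.

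**Figure D3:**
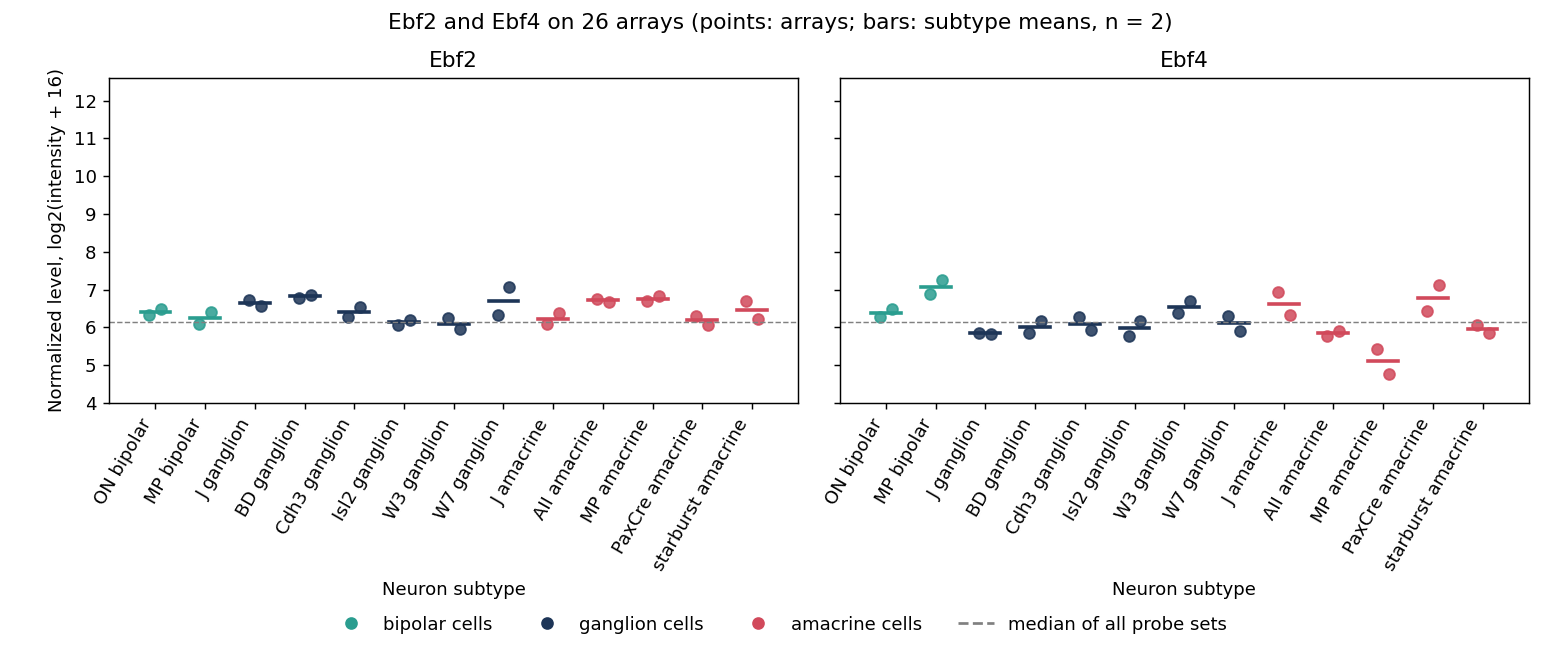
Levels of Ebf2 and Ebf4 on the same axis and arrays as for Ebf1 and Ebf3: log2(intensity + 16), points for arrays, bars for subtype means, dashed line for the overall median. Ebf2 stays between 5.95 and 7.07 on all arrays, and Ebf4 has its highest subtype mean in MP bipolar cells (6.88 and 7.27) and its lowest in MP amacrine cells (5.42 and 4.78).

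Differences between groups were tested with limma over all 13951 genes that passed the filter on dim genes, all 4 members among them. A gene was called where its Benjamini-Hochberg adjusted p was under 0.05 and the groups differed by 1 log2 unit or more. Subtypes had equal weight in a class, and the error comes from the replicates within subtypes. All 13 subtypes share 1 estimate of spread for each gene, so arrays outside a comparison also enter its error. For Ebf1 and Ebf3 the PaxCre arrays differed most, with SDs of 1.03 and 1.35, against medians of 0.36 and 0.19 over the subtypes. In bipolar cells Ebf1 and Ebf3 were lower than in ganglion cells in every array. Ebf1 averaged 5.50 in bipolar and 10.57 in ganglion cells, a difference of -5.08 ± 0.23 (limma adjusted p = 1.33e-12). Ebf3 averaged 4.89 in bipolar and 10.38 in ganglion cells (-5.49 ± 0.23, adjusted p = 6.00e-13). The low levels lie near the floor that the pseudocount sets, so these differences depend on it: with 64 in place of 16 they were -4.06 and -4.15, and with 1 they were -5.72 and -6.57. Those 2 of the 4 members were called there, where 29.6% of all tested genes were called and 18.5% lower. Ebf4 was 0.62 ± 0.16 higher in bipolar cells (adjusted p = 0.00249), short of 1 unit, and only 0.09 higher (adjusted p = 0.661) on the columns as deposited and 0.27 (adjusted p = 0.311) in C57BL/6 subtypes only. Ebf2 differed by -0.14 ± 0.13 (adjusted p = 0.359), and by -0.68 on the columns as deposited, where all tested genes shifted by -0.51.

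Against amacrine cells the averages hide the split within that class. In bipolar cells Ebf1 differed from the amacrine average by -2.58 ± 0.23 (limma adjusted p = 1.01e-07) and Ebf3 by -3.09 ± 0.24 (adjusted p = 1.12e-08), both overlapping the low amacrine arrays. Of all tested genes 10.4% were called in this comparison and 5.70% lower. Ganglion cells averaged 10.57 for Ebf1 against 8.08 in amacrine cells (2.49 ± 0.17, adjusted p = 2.52e-10), and for Ebf3 10.38 against 7.98 (2.39 ± 0.17, adjusted p = 5.77e-10). Here 24.8% of all tested genes were called and 15.8% higher, and on the brightest probe sets the J and MP amacrine arrays lay above the ganglion range for Ebf1 and within or above it for Ebf3. On the dimmest probe sets ganglion minus amacrine cells gave 0.49 for Ebf1 and 0.64 for Ebf3, under 1 unit (limma adjusted p = 0.00136 and 0.00203). With the subtype means as the units, both calls on the brightest probe sets were lost (adjusted p = 0.115 for each), and so were those of bipolar against amacrine cells (adjusted p = 0.455 for Ebf1 and 0.341 for Ebf3). Those of bipolar against ganglion cells were kept, with limma adjusted p of at most 0.0267 for Ebf1 and 0.0146 for Ebf3 over all settings. Ebf2 and Ebf4 differed by -0.01 ± 0.10 and 0.04 ± 0.12 between ganglion and amacrine cells, and by 0.52 and 0.51 on the columns as deposited, which is the shift of all genes there. In C57BL/6 subtypes only they differed by 0.18 (adjusted p = 0.240) and -0.36 (adjusted p = 0.0409). Ebf4 differed by 0.66 ± 0.16 between bipolar and amacrine cells (adjusted p = 0.00455, under 1 unit), but by -0.09 in C57BL/6 subtypes only (adjusted p = 0.816), and with subtype means as units its adjusted p was 0.390. All ganglion arrays came from Thy1+ sorts, so class and gate cannot be told apart.

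**Figure D4:**
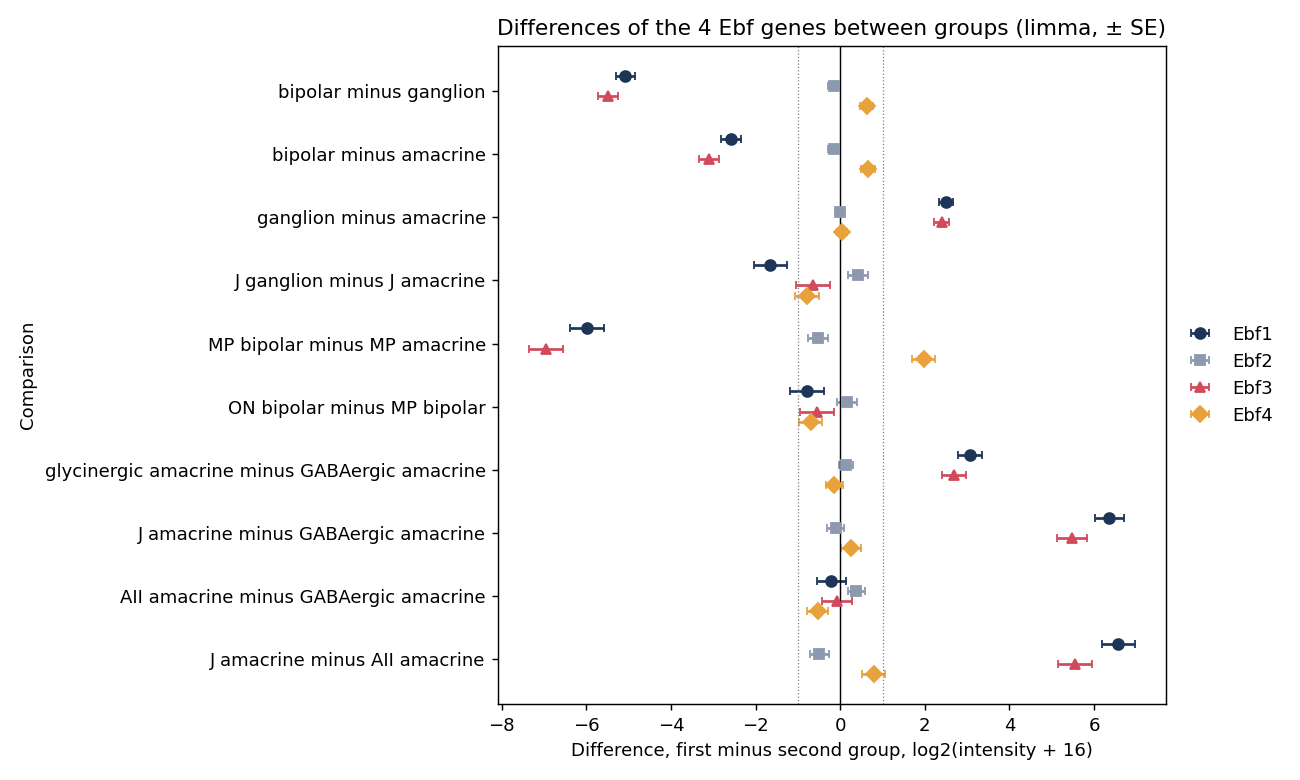
Differences of the 4 genes (limma estimate ± SE, log2(intensity + 16)) in 10 comparisons, each the first named group minus the second, with dotted lines at -1 and 1. Ebf1 and Ebf3 have the same sign in every comparison shown, from -6.96 (Ebf3, MP bipolar minus MP amacrine) to 6.57 (Ebf1, J minus AII amacrine), and Ebf2 stays between the dotted lines throughout.

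Within the amacrine class Ebf1, Ebf3 and Ebf4 differed among the 5 subtypes and Ebf2 did not pass. The spread between the highest and lowest subtype mean was 6.71 for Ebf1 (limma F test, adjusted p = 5.27e-11), 7.02 for Ebf3 (adjusted p = 1.19e-10), 1.68 for Ebf4 (adjusted p = 0.000449) and 0.57 for Ebf2 (adjusted p = 0.107). This F test called 52.5% of all tested genes. In the C57BL/6 subtypes only, the Ebf4 spread was 0.81 and did not pass (adjusted p = 0.109). Each amacrine subtype was also set against the mean of the other 4. Ebf1 was higher in J cells (4.85 ± 0.31) and in MP cells (4.74 ± 0.31), and lower in AII (-3.37), starburst (-3.54) and PaxCre cells (-2.67). Ebf3 was highest against the others in MP cells (5.17 ± 0.32), then J cells (3.87 ± 0.32), and lower in starburst (-3.60), AII (-3.08) and PaxCre cells (-2.35). The PaxCre value for Ebf3 was -3.31 without PaxCre replicate 1 and -1.40 without PaxCre replicate 2. All 10 of these passed the limma test on the brightest probe sets, with adjusted p of at most 4.51e-05 (Ebf3 in PaxCre cells). On the dimmest ones J cells were not called, at 0.41 for Ebf1 (1457441_at, limma adjusted p = 0.245) and 0.17 for Ebf3 (1460666_a_at, adjusted p = 0.769). Starburst cells were not called for Ebf1 on 1457441_at either (-0.83, adjusted p = 0.0114, under 1 unit), while MP and AII cells were called on both. The shares of all tested genes called were 6.06% for J, 10.4% for MP, 16.2% for AII, 10.9% for starburst and 6.54% for PaxCre cells. Ebf4 was lower in MP amacrine cells than in the others (-1.20 ± 0.22, adjusted p = 0.000642), a call that ended, under 1 unit, without MP replicate 2 (-0.88, adjusted p = 0.0466) and with a pseudocount of 64 (-0.64, adjusted p = 0.00284). Ebf4 values above those of the others stayed under 1 unit, at 0.89 ± 0.22 in PaxCre cells (adjusted p = 0.0101) and 0.71 ± 0.22 in J cells (adjusted p = 0.0385). The PaxCre value was called with a pseudocount of 1 (1.17) and without PaxCre replicate 1 (1.23), and the J value without J amacrine replicate 2 (1.01).

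The 2 subtypes taken as glycinergic were unlike in Ebf1 and Ebf3. MP amacrine cells, high in both genes, were on neither side. Their mean of 8 glycinergic amacrine markers was 9.6, against 9.6 in J, 10.8 in AII, 7.7 in PaxCre and 6.6 in starburst cells. For 5 GABAergic amacrine markers the means were 7.6 in MP, 8.5 in J, 6.5 in AII, 9.3 in PaxCre and 8.1 in starburst cells. Averaged over their subtypes, glycinergic cells had 8.67 of Ebf1 and GABAergic cells 5.60 (3.07 ± 0.28, limma adjusted p = 2.59e-07), and for Ebf3 8.30 and 5.60 (2.70 ± 0.28, adjusted p = 1.51e-06). Of all tested genes 9.01% were called and 3.26% higher. The dimmest probe sets were not called there, at 0.38 for Ebf1 (limma adjusted p = 0.166) and 0.49 for Ebf3 (adjusted p = 0.190). The difference on the brightest probe sets rested on J cells, as single-subtype comparisons added after seeing the data show. J cells exceeded the GABAergic pair by 6.36 ± 0.34 for Ebf1 (adjusted p = 8.33e-10) and 5.48 ± 0.35 for Ebf3 (adjusted p = 6.56e-09), where 7.35% of genes were called and all 3 subtypes were C57BL/6. AII cells differed from the same pair by -0.21 ± 0.34 for Ebf1 (adjusted p = 0.657) and -0.08 ± 0.35 for Ebf3 (adjusted p = 0.880), where 20.2% were called. Between the glycinergic subtypes themselves, J cells exceeded AII cells by 6.57 ± 0.40 for Ebf1 (adjusted p = 1.86e-09) and 5.56 ± 0.40 for Ebf3 (adjusted p = 1.69e-08), with 19.5% of genes called. With AII cells near the floor, the size depends on the pseudocount, at 5.48 for Ebf1 and 4.54 for Ebf3 with 64 and 7.23 and 6.17 with 1. All 5 Ebf1 and all 3 Ebf3 probe sets were called in that comparison, the smallest differences being 1.20 and 1.28 on the dimmest ones. J and AII cells also differ in strain. Ebf2 (-0.49) and Ebf4 (0.79) stayed under 1 unit.

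The MP line and the J line were compared each within itself. In the MP line, Ebf1 was 5.97 and 5.81 in bipolar cells against 11.62 and 12.13 in amacrine cells (-5.98 ± 0.40, limma adjusted p = 7.79e-09). Ebf3 fell to 5.21 and 5.11 in the bipolar cells, against 12.10 and 12.13 in the amacrine cells (-6.96 ± 0.40, adjusted p = 1.29e-09). These sizes also depend on the pseudocount, at -5.14 and -5.74 with 64 and -6.41 and -7.75 with 1. Ebf4 ran the opposite way, higher in MP bipolar cells by 1.97 ± 0.28 (adjusted p = 5.66e-05), and by 1.15 and 2.69 with those pseudocounts. Ebf2 was not called in that comparison (-0.52 ± 0.23, limma adjusted p = 0.197), where 8.37% of all tested genes were. In the J line, Ebf1 was 10.70 and 9.92 in ganglion cells and 11.77 and 12.14 in amacrine cells (-1.65 ± 0.40, 3.14-fold lower, adjusted p = 0.00237), where 30.8% of genes were called, 18.4% higher and 12.4% lower. That call held on the brightest Ebf1 probe set and on no other: the next brightest gave -0.60 (adjusted p = 0.238), the median over the probe sets -0.62 (adjusted p = 0.0774), and 1416302_at 0.45 in the other direction (adjusted p = 0.162). Ebf3 differed by -0.65 ± 0.40 (adjusted p = 0.200), and by 0.47 in the other direction on 1460666_a_at (adjusted p = 0.329). Ebf4 differed by -0.78 ± 0.28 (adjusted p = 0.0292, under 1 unit) and Ebf2 by 0.42 ± 0.23 (adjusted p = 0.146) in the J line. On the columns as deposited, where all tested genes shifted by 0.54, Ebf4 differed by -0.24 (adjusted p = 0.494) and Ebf2 by 1.02, which was called (adjusted p = 0.00149). The J line difference minus the ganglion minus amacrine difference over the other subtypes was -5.17 for Ebf1 and -3.81 for Ebf3, a contrast added after seeing the data that called 7.16% of genes. Its other amacrine side averages MP cells, high in both genes, with AII, PaxCre and starburst cells, low in both.

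Between the 2 bipolar subtypes no member was called, where 5.03% of all tested genes were. Differences of ON minus MP bipolar cells were -0.78 ± 0.40 for Ebf1 (limma adjusted p = 0.357), -0.70 ± 0.28 for Ebf4 (adjusted p = 0.190), -0.54 ± 0.40 for Ebf3 and 0.16 ± 0.23 for Ebf2. Among the 6 ganglion subtypes no member passed the F test either, where 6.38% of genes did. The subtype means spanned 0.54 for Ebf1 (adjusted p = 0.873), 1.13 for Ebf3 (adjusted p = 0.268), 0.73 for Ebf2 (adjusted p = 0.158) and 0.68 for Ebf4 (adjusted p = 0.571). For Ebf3 the F test passed with a pseudocount of 64 (adjusted p = 0.0383) and without either PaxCre array (adjusted p = 0.0268), and for Ebf2 without W7 replicate 1 (adjusted p = 0.0434). In no ganglion subtype was a member called against the other 5, with 0.495% of genes called for BD, 2.08% for Cdh3, 0.222% for Isl2, 2.04% for J, 0.803% for W3 and 1.37% for W7 cells. The largest such differences were 0.68 ± 0.31 (Ebf3, Isl2 cells) and -0.67 ± 0.31 (Ebf3, Cdh3 and W3 cells). The arrays of Isl2 cells for Ebf3 (10.83 and 11.06) and of W3 cells for Ebf4 (6.37 and 6.69) lay above all other ganglion arrays.

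Genes with the most similar pattern were ranked by Pearson correlation over the 13 subtype means, as a description. Ebf1 and Ebf3 were each other's closest gene among all those tested (r = 0.987). The value rests on the split into 8 high and 5 low subtypes: over the 6 ganglion subtypes alone it was 0.175. After Ebf3, the genes closest to Ebf1 were Cklf (r = 0.941), a chemokine-like factor, Fam227a (0.937), Tex13a (0.928) and Gm15527 (0.903), all with narrower ranges, such as 4.68 to 6.12 for Fam227a. Closest to Ebf3 after Ebf1 came Fam227a (0.946), Cklf (0.933), Ephb1 (0.926) and Grrp1 (0.920). Ephb1, a receptor for ephrin-B ligands that guides ganglion cell axons at the optic chiasm, was at 5.58 in MP bipolar cells and 10.72 in MP amacrine cells. Unlike Ebf3 it was at 8.58 in PaxCre, 7.33 in starburst and 7.22 in AII amacrine cells. For Ebf4 the closest was Pcdh17 (r = 0.904), a protocadherin, at 12.43 in MP bipolar cells and 7.26 in MP amacrine cells, followed by Mpp2 (0.900), Tmem135, Zfp862-ps and Cadps. For Ebf2 the closest reached only r = 0.807 (Lnpk). Among the members themselves, Ebf2 and Ebf4 gave r = -0.695 and the other pairs between -0.440 and 0.182.

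Known partners and regulators of the family did not move as one. The list held 14 genes, chosen with results of these data known: the zinc finger proteins Zfp423 and Zfp521, which bind Ebf1 and restrain it, the E proteins Tcf3, Tcf4 and Tcf12, the E protein inhibitors Id1 to Id4, and the cofactors Cnot3, Ep300, Chd4, Smarca4 and Tet2. All 14 were tested. In bipolar against ganglion cells, where 29.6% of all tested genes were called, 3 were called higher (Tcf4 2.92, Tcf12 2.01 and Chd4 1.05), 3 lower (Id4 -5.78, Id2 -3.89 and Zfp423 -1.81) and 8 not, with a median of 0.39 against 0.02 over all tested genes. In bipolar against amacrine cells (10.4% of all tested genes called) Zfp521 (1.60) and Tcf4 (1.01) were higher and Id4 (-4.44), Zfp423 (-2.89) and Id2 (-2.78) lower, with 9 not called and a median of 0.11. In ganglion against amacrine cells (24.8% called) Zfp521 (1.60), Id4 (1.34) and Id2 (1.11) were higher, Tcf4 (-1.91), Chd4 (-1.49), Zfp423 (-1.08) and Tcf12 (-1.05) lower and 7 not called, with a median of -0.41. Levels of Zfp423 were 10.93 in AII and 10.95 in MP amacrine cells, where Ebf1 was low in the first and high in the second. Zfp521 stood at 10.99 in MP bipolar and 6.45 in MP amacrine cells. Id4 was 10.81 in J amacrine cells and 6.91 in AII cells, a difference of 3.91 ± 0.42 (limma adjusted p = 1.89e-06), but 11.94 in starburst and 12.58 in PaxCre cells, both low in Ebf1. Tcf4, which is also on the list of glycinergic amacrine markers, was near 12 in both glycinergic subtypes (12.32 in J and 12.05 in AII cells). It was called 3.10 higher in glycinergic than in GABAergic cells, along with Tcf12 (1.45) and Zfp423 (1.32). Id4 was lower (-3.40) and 10 were not called, where 9.01% of all tested genes were. The median was 0.16, against -0.08 over all tested genes.

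Genes that carry the family's sites in other tissues were listed as well, also with earlier results known. Of 11 B-lineage genes 10 were measured and 7 tested, and none was called in the planned comparisons between classes, transmitters or single subtypes. Igll1, part of the surrogate light chain, was 1.09 higher in J than in AII amacrine cells (limma adjusted p = 0.00136), a comparison added later. The list's mean level lay between 6.05 and 6.30 in every subtype, those high in Ebf1 included. Of 4 genes first known for such sites in olfactory neurons, Gnal (a G protein alpha subunit) was 1.55 ± 0.10 higher in ganglion than in amacrine cells and 2.30 ± 0.14 lower in bipolar than in amacrine cells (limma adjusted p = 1.38e-10 and 5.08e-10). Cnga2 was 1.62 higher and Omp fell by 1.23 in ganglion against amacrine cells, and Adcy3 (-0.41) was not called (median of the 4 genes 0.57, against 0.00 over all tested genes). Gnal did not follow the split of Ebf1 within the amacrine class, at 8.62 in J, 8.44 in MP, 9.14 in PaxCre, 8.50 in AII and 8.07 in starburst cells.

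Ebf1 is also expressed in the mural cells of vessels, so markers of other cell types were read beside it. Of 14 mural cell markers, all measured and 11 tested, 9 were called higher in ganglion than in amacrine cells, where 15.8% of all tested genes were, Rgs5 by 3.98 and Pdgfrb by 2.70 (limma adjusted p = 2.86e-06 and 0.000218). Their mean level was 5.12 to 5.26 in bipolar, 5.95 to 8.25 in ganglion and 5.12 to 5.52 in amacrine subtypes. The filter on dim genes kept those with at least 2 arrays above the overall median, which the bipolar and amacrine means lie below. The tested mural markers may thus have passed mainly on ganglion arrays. The share called higher, here and in the J line below, may then partly reflect the filter. The mean mural marker level was highest in J ganglion cells (8.25), where Ebf1 did not pass the test against the other ganglion subtypes. In the J and MP amacrine cells, both high in Ebf1, it was 5.25 in each, with Rgs5 at 5.01 in J and 5.63 in MP cells. Of 9 microglia markers 9 were called higher in ganglion than in amacrine cells, against the same 15.8%, with means of 5.51 to 6.07 in bipolar, 7.62 to 10.27 in ganglion and 5.48 to 7.03 in amacrine subtypes. In the J line 9 of 11 mural and 9 of 9 microglia markers were called higher in ganglion than in amacrine cells, where 18.4% of all tested genes were, while Ebf1 was called lower on 1 of its 5 probe sets and not called on the other 4. The part of these cells in the ganglion cell levels was not tested. Endothelial markers (5.50 to 6.15) and astrocyte markers (5.29 to 5.71) stayed low in every subtype on average, and 6 horizontal cell markers, another cell type that uses the family, had means of 6.71 to 6.79 in bipolar, 7.01 to 8.26 in ganglion and 6.52 to 8.08 in amacrine subtypes. Rod markers (9 measured, 8 tested) had means of 8.24 to 8.54 in bipolar, 5.44 to 6.50 in ganglion and 6.44 to 8.61 in amacrine subtypes, the last in MP cells. They were called higher in bipolar than in ganglion cells for 7 of the 8, where 11.2% of all tested genes were called higher, and for none between MP bipolar and MP amacrine cells, where 8.37% were called. Their part in these levels was not tested.

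**Figure D5:**
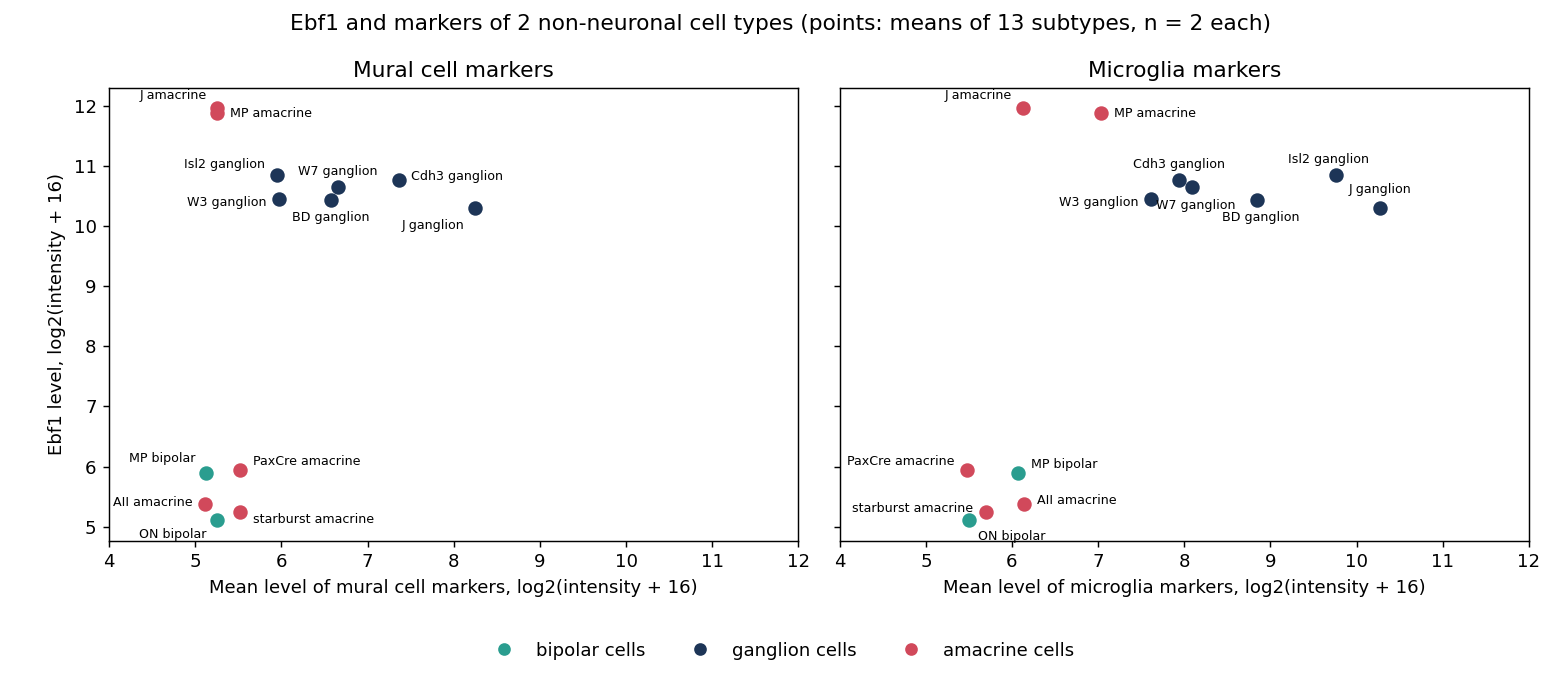
Ebf1 (vertical axis) against the mean level of 14 mural cell markers (left) and 9 microglia markers (right), all as log2(intensity + 16), with 1 point for each of 13 subtypes. Ebf1 is drawn from its brightest probe set, and the order among the 8 high subtypes differs on others. J and MP amacrine cells are high in Ebf1 at a mural marker mean of 5.25, and J ganglion cells have the highest mural mean (8.25).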

How the data were processed

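Cells from papain-dissociated retinas were sorted by fluorescence, and their RNA went through 2 rounds of amplification and biotin labelling, per the labels. The authors deposited 1 linear intensity per probe set and array. Between 2.87% and 4.01% of an array's values equalled 1, and neither software nor scaling is given in the sources used here. From these values log2(intensity + 16) was computed and the 26 arrays were quantile normalized.

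Of 45037 probe sets (64 controls left out), 9160 without a symbol and 932 with several were dropped. Of the 34945 others, 34741 were matched by gene ID to a current symbol, whether or not it had changed. The brightest probe set stood for each of 18193 genes. The 13951 genes with at least 2 arrays above the overall median (6.14) were tested with limma 3.58.1 in R 4.3.3, with a mean for each subtype, 13 residual and 4.59 prior degrees of freedom, two-sided, adjusted by Benjamini-Hochberg within each comparison. 19 comparisons were planned and 5 added after seeing the data. Named genes are the members, the 5 genes closest to each over the subtype means, and list members. The members and lists were chosen with earlier results of these data known. The script was tested on simulated data. Promoters and gene positions came from RefSeq tables of GRCm38.p6, which held a promoter for 3 of the 4 members.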

Additional observations from a re-analysis of the deposited data

Results flagged for a closer look

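The 2 amacrine subtypes taken as glycinergic differed in 2 members of the family, in a comparison added after seeing the data. Of all tested genes 19.5% were called there. J and AII cells also differ in strain, and with AII cells near the floor the sizes depend on the pseudocount. On the brightest probe sets Ebf1 was 6.57 ± 0.40 higher in J than in AII amacrine cells (limma adjusted p = 1.86e-09) and Ebf3 5.56 ± 0.40 higher (adjusted p = 1.69e-08), in both arrays of each subtype. All of their probe sets were called higher, with smaller differences on the dimmest. There J and AII cells lay at 6.06 and 4.86 for Ebf1, and at 6.38 and 5.10 for Ebf3.

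The difference of ganglion minus amacrine cells in the J line was set against the same difference over the other subtypes, in a test of that contrast added after seeing the data, in which 7.16% of all tested genes were called. It was -5.17 ± 0.44 for Ebf1 (adjusted p = 1.02e-06) and -3.81 ± 0.45 for Ebf3 (adjusted p = 3.61e-05). For Ebf4 it was -1.01 ± 0.31 (adjusted p = 0.0476), a call lost in 25 of 33 alternatives. The other amacrine side averages MP cells, high in Ebf1 and Ebf3, with AII, PaxCre and starburst cells, low in both. J ganglion cells did not pass against the other ganglion subtypes (Ebf1 -0.32, limma adjusted p = 0.714, Ebf3 0.06, adjusted p = 0.966). The error is that of replicates and leaves out the spread between subtypes.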

How the results depend on the processing

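The 76 results on the members over the planned comparisons were recomputed in 2701 alternative values, of which 2683 kept their call, 9 lost it, 9 gained it and none reversed a call. With subtype means as units, Ebf1 and Ebf3 lost their calls in ganglion minus amacrine (2.49 and 2.39) and bipolar minus amacrine cells (-2.58 and -3.09), where 423 genes were called in place of 1447. With AII alone on the glycinergic side, an alternative added after seeing the data, Ebf1 (-0.213) and Ebf3 (-0.079) turned in sign and were not called. Ebf4 in bipolar minus amacrine cells was called with the MP line alone (1.97), also added, and turned in sign, not called in either, in C57BL/6 subtypes only (-0.09). In J ganglion minus J amacrine cells, Ebf1 lost its call on the next brightest probe set (-0.60) and the median over probe sets (-0.62), Ebf2 gained one on columns as deposited (1.02), and Ebf4 lay between -1.08 and -0.48 without single replicates, called without J amacrine replicate 2. Among ganglion subtypes, Ebf3 passed with a pseudocount of 64 (1.09) and lay between 1.01 and 1.35 without single replicates, Ebf2 between 0.69 and 0.98. Among amacrine subtypes Ebf4 lost its call in C57BL/6 subtypes only (0.81). Against the other amacrine subtypes Ebf4 lost its call in MP cells in 2 settings and gained one in PaxCre cells in 2 (1.17 and 1.23) and in J cells in 1 (1.01).

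Counts of genes called moved by over 1.5 times in some settings. A pseudocount of 64 gave 2095 in place of 3455 for ganglion minus amacrine, 2681 in place of 4131 for bipolar minus ganglion, 780 in place of 1257 for glycinergic minus GABAergic, and 955, 483, 596 and 73 in place of 1450, 845, 912 and 112 for MP, J and PaxCre amacrine and W3 ganglion against the others of their class; a pseudocount of 1 gave 15 in place of 31 for Isl2. The next brightest probe set, which leaves fewer genes to test and gave no value for Ebf4, gave 1673, 636, 1915, 531, 270 and 2113 for the 6 class, transmitter, bipolar and J comparisons, 603, 587, 900, 373 and 372 for the amacrine subtypes, 35, 89, 11, 80, 30 and 66 for the ganglion subtypes, and 293 and 2734 among ganglion and among amacrine subtypes. The median over probe sets gave 563 for J amacrine cells. Array weights gave 524 for J amacrine, 17, 148 and 208 for BD, Isl2 and W3 ganglion cells, and 1537 among ganglion subtypes. C57BL/6 subtypes only gave 556 among ganglion and 2287 among amacrine subtypes. Without single replicates the counts ran from 10 to 826 for BD (main 69, both extremes without a BD array), 185 to 373 for Cdh3, 10 to 60 for Isl2, 41 to 395 for J, 41 to 191 for W3 and 67 to 251 for W7 ganglion cells, and from 664 to 1994 among ganglion subtypes (1994 without BD replicate 1). Columns as deposited put the share of calls that were higher at 84.2% in place of 63.7% for ganglion minus amacrine, 17.3% in place of 37.7% for bipolar minus ganglion and 81.9% in place of 59.8% for J ganglion minus J amacrine cells. Replicate numbers were not used to pair the samples in the main fit. Same-numbered deviations of 78 pairs of subtypes correlated between -0.228 and 0.374 (median 0.0299, 21 above 0.1), so whether some subtypes share a pairing was not settled. With the replicate number as a block 3455, 1447, 4131, 1265, 728 and 4318 genes were called in the first 6 comparisons and no member's planned call changed. The cause of these changes was not tested. With 2 arrays a subtype and no detection calls, differences of under about 1 unit near the median level are least certain.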
